A study of Homo sapiens with 16 samples.

Results

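The genes described here are 9 genes of extracellular matrix breakdown and its control: the matrix metalloproteinases MMP2, MMP9 and MMP14, the tissue inhibitors of metalloproteinases TIMP1, TIMP2, TIMP3 and TIMP4, the urokinase gene PLAU and its receptor gene PLAUR. They were taken by symbol from the platform annotation and are represented by 12 probes, among 20046 genes with a named probe. TIMP2 has 2 probes, PLAUR has 3 and each other gene has 1, and the brightest probe of a gene gives its main value. They were followed in H1 cells, an established human embryonic stem cell line, on Matrigel in mTeSR medium, either untreated or given bone morphogenetic protein 4 (BMP4) at 100 ng/ml, on days 0 to 7. The series holds 16 Illumina bead arrays, 1 per arm and day, with no statement of the number of cultures behind them. Days 1 to 3 form an early window (n = 3 arrays per arm) and days 4 to 7 a late window (n = 4 arrays per arm), so a p-value here is set against the scatter of neighbouring days, part of which may be technical and part a course over time.

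Matrix metalloproteinases are zinc-dependent enzymes, secreted or anchored to the membrane, that cut collagens and other matrix proteins and are made as inactive proenzymes. MMP2 and MMP9 are the gelatinases, which cut denatured collagen and the type IV collagen of basement membranes, and MMP14 is a membrane-type enzyme that activates pro-MMP2 at the cell surface together with TIMP2. The TIMPs bind and block the active enzymes, and TIMP3 differs from the others in that it stays bound to the matrix. Urokinase, the product of PLAU, turns plasminogen into plasmin while held at the cell surface by the receptor that PLAUR encodes. In the placenta these genes are known for their part in trophoblast invasion, and the same enzymes act in the cell movements of early embryos.

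Values are deposited intensities on a linear scale, quantile normalized across the arrays. An intensity of 134.3, the 99th percentile of the estimated background, served as the detection floor. Changes are differences of log2 levels, tested over 13398 genes with limma and Benjamini-Hochberg adjustment at a threshold of 0.05. Precision is limited by how few arrays there are. Of 9 markers of pluripotent stem cells 8 have a probe, and all 8 lay above the floor at day 0 in both arms. The day 0 arrays of the arms correlated at 0.969 over the tested genes, against 0.975 to 0.992 for neighbouring days within an arm, and 1027 genes differed between them by at least 2-fold. For that reason each change is also given with the day 0 difference subtracted where this ends its call. At day 0 both arrays of MMP2 and TIMP3 and the untreated array of MMP14 lay under the floor. For MMP14 the subtracted value is therefore only a fitted one. A value with day 0 subtracted carries the error of the single day 0 arrays and is less precise.

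In the late window 5 of the 9 genes rose under BMP4 (MMP2, MMP14, TIMP1, TIMP2 and TIMP3), 3 fell (TIMP4, PLAU and PLAUR) and MMP9 did not pass the test. Among all tested genes 53.9% passed in the same comparison, 27.3% higher and 26.6% lower. The members were chosen with earlier results of these data known, so their share cannot be weighed against that of all genes. In the early window, where 29.4% of all genes passed, MMP9 alone of the 9 rose, against 16.1% of all genes, and none fell by limma, against 13.3% of all genes, with 0 members lower at an unadjusted p under 0.05. The arrays of the arms did not overlap for 5 members in the early window, all higher with BMP4 (23.7% of all genes, with 19.2% lower), and in the late window for 4 higher (24% of all genes) and 1 lower (23.1%). The early 5 were MMP2, MMP9, TIMP1, TIMP2 and PLAUR, and each early array of MMP2 was under the floor. Early changes on the other probes were -0.32 and -0.05 for PLAUR and -0.09 for TIMP2. With the day 0 difference subtracted, 2 members rose late, MMP2 and TIMP3, whose day 0 arrays were all under the floor, and none fell by limma. Over all 13398 tested genes 1195 rose and 1415 fell in that comparison. Both MMP2 and TIMP3 passed the filter on dim probes through BMP4 arrays alone, so their rise is partly built in. Where arrays were centred on housekeeping genes the median change of all genes moved by -0.21 early and -0.23 late, and the early calls over all genes went from 2157 higher and 1778 lower to 1113 higher and 3162 lower. Among the members that centring ended the late call of TIMP2 and no other early or late call.

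**Figure D1:**
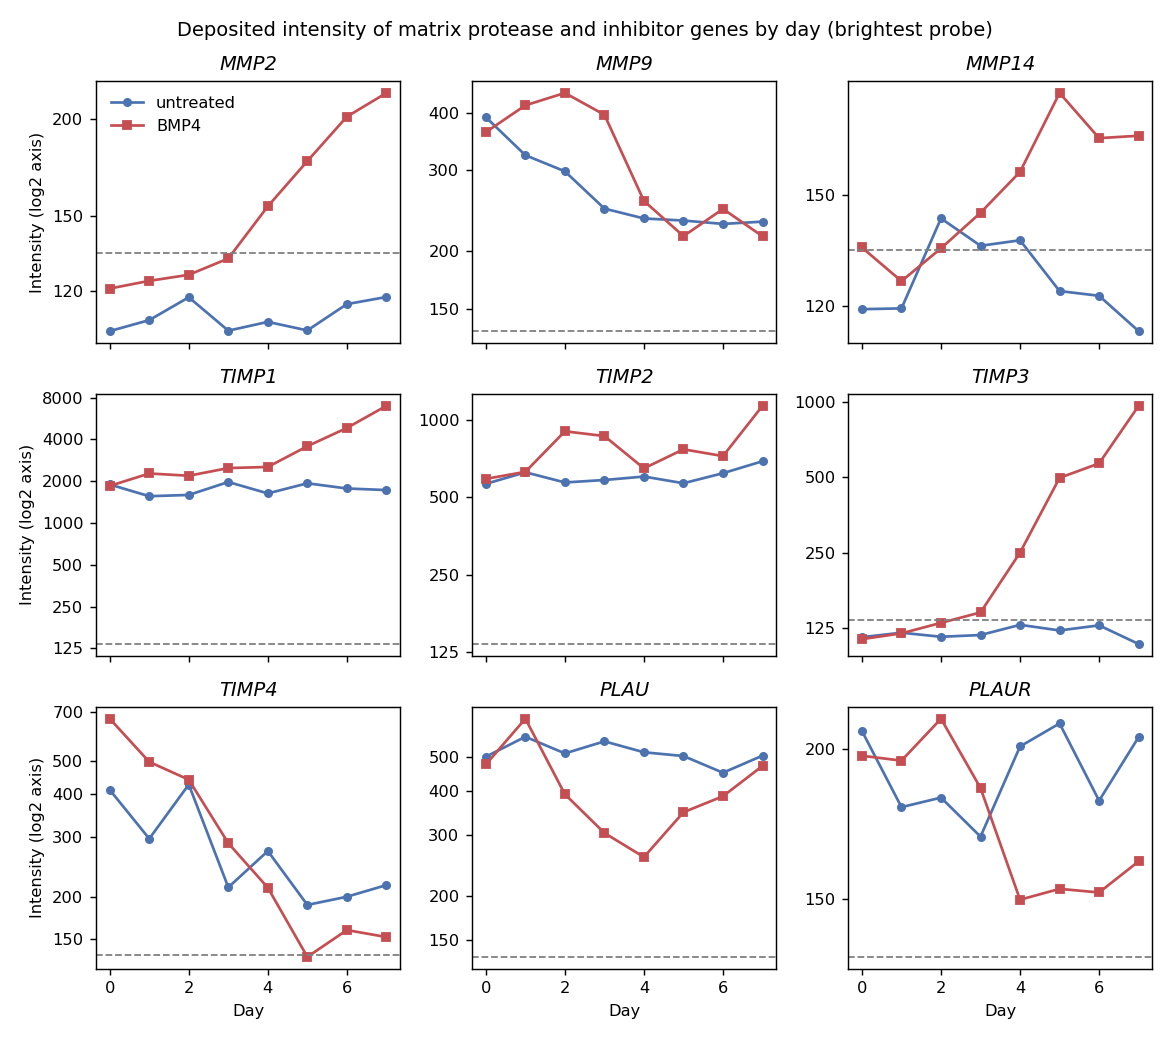
Deposited intensity of the brightest probe of each gene (log2 axis, its range set per panel) against day, with circles for the untreated and squares for the BMP4 arm, 1 array per point, and a dashed line at the detection floor of 134.3. MMP2, TIMP3 and TIMP1 climbed in the BMP4 arm from day 4 on, MMP9 came down in both arms, and PLAU dipped to 259 on day 4 and was back at 473 on day 7.

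MMP2, the first of the gelatinase genes, came above the floor late and with BMP4 alone. Its intensity in untreated cells was 110, 118 and 107 on days 1 to 3 and 109, 107, 115 and 118 on days 4 to 7, never above the floor. In the BMP4 arm it was 124, 126 and 132 on days 1 to 3, still under the floor, and 154, 176, 201 and 216 on days 4 to 7. The late arrays of the arms did not overlap, and each day of the BMP4 arm was brighter than the day before. Early arrays did not overlap either, but all lay under the floor. At day 0 MMP2 already read 106 in untreated cells and 121 in the BMP4 arm. Late, MMP2 was at least 2.48-fold higher with BMP4 (fitted log2 change 1.98, SE 0.20, adjusted p = 3.13e-07 by limma). Its early change did not pass the test (log2 change 0.41, SE 0.23, adjusted p = 0.185). The gene passed the filter on dim probes through the 4 late arrays of the BMP4 arm alone, so a difference was built into its presence among the tested genes.

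MMP14, the activator of pro-MMP2, was near the floor on most arrays. Untreated cells gave 119, 143 and 136 on days 1 to 3 and 137, 124, 123 and 114 on days 4 to 7. Under BMP4 the values were 126, 135 and 145, then 157, 184, 168 and 169. The arms overlapped in the early window and not in the late one. MMP14 was at least 2.01-fold higher late (fitted log2 change 1.38, SE 0.22, adjusted p = 4.37e-05), and early its log2 change was 0.08 (SE 0.25, adjusted p = 0.846). At day 0 it read 119 without BMP4, under the floor, and 135 in the BMP4 arm, just above it, so the day 0 difference has only a lower bound. With the fitted day 0 difference subtracted, the late change was 0.81 and did not pass (adjusted p = 0.255).

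MMP9, the other gelatinase gene, took a different course from MMP2. In untreated cells it went from 391 on day 0 through 323, 298 and 248 on days 1 to 3 to 236, 233, 229 and 232 on days 4 to 7, a slope of -0.17 on the log2 scale per day (SE 0.04, adjusted p = 0.0371). That slope did not pass in 7 of 16 fits that each left out 1 array, over which its adjusted p ran from 0.0180 to 0.305. It was weakest without the untreated array of day 0 (-0.13, adjusted p = 0.305). Under BMP4 MMP9 stood at 363 on day 0, at 415, 441 and 396 on days 1 to 3, and at 257, 216, 247 and 216 on days 4 to 7. The early arrays of the BMP4 arm all lay above those of untreated cells, while the late arrays overlapped. MMP9 was 1.70-fold higher early (log2 change 0.77, SE 0.17, adjusted p = 0.00293) and did not differ past the threshold late (log2 change 0.00, SE 0.15, adjusted p = 0.994). Corrected for day 0, the early value was 0.91 and did not pass (adjusted p = 0.166).

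The late effect of BMP4 differed from the early one in 5 of the 9 genes (9.23% of all genes), 3 towards higher (4.93%) and 2 towards lower values (4.31%). For MMP2 the difference between the windows was 1.57 on the log2 scale (SE 0.30, adjusted p = 0.00463), for MMP14 1.30 (adjusted p = 0.0211) and for TIMP3 3.51 (SE 0.55, adjusted p = 0.00178), all fitted values that include means under the floor. MMP2 and TIMP3 passed the filter through BMP4 arrays alone, so part of their difference is built in. For MMP9 it was -0.76 (adjusted p = 0.0428) and for PLAUR -1.24 (SE 0.23, adjusted p = 0.00395). TIMP1 (0.82, adjusted p = 0.120) and TIMP4 (-1.62, adjusted p = 0.0760) did not pass. The difference of MMP9 is not firm, since it did not pass in 11 of 16 fits that each left out 1 array (adjusted p from 0.0132 to 0.125). That of MMP14 did not pass in 4 of these fits (adjusted p from 0.00764 to 0.0652). TIMP4 gained the call without the untreated array of day 2 (-2.00, adjusted p = 0.0425) or the BMP4 array of day 3 (-1.95, adjusted p = 0.0262) or day 4 (-1.94, adjusted p = 0.00923), and TIMP1 without the BMP4 array of day 4 (1.07, adjusted p = 0.00437).

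**Figure D2:**
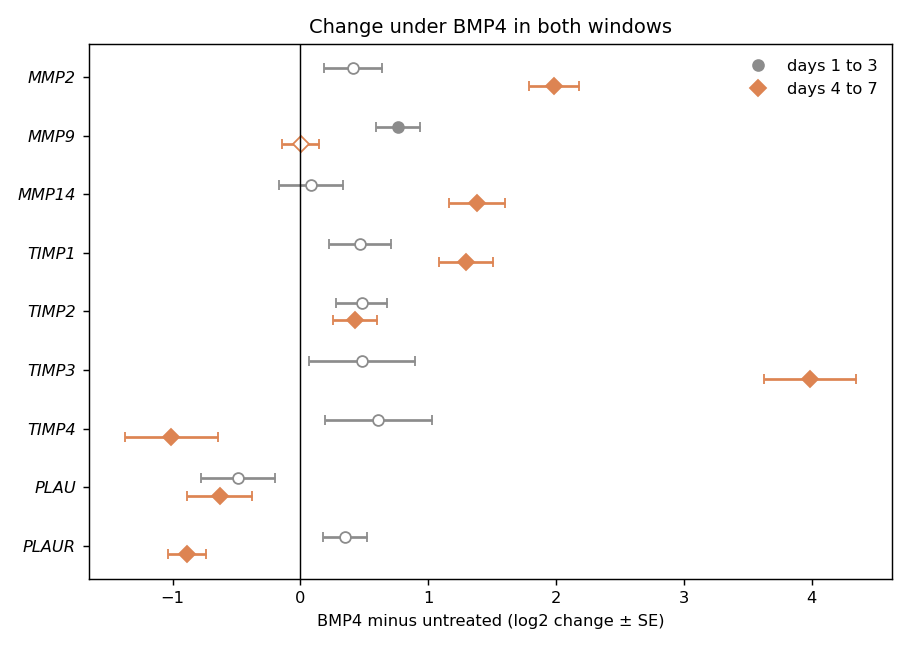
Log2 change, BMP4 minus untreated, with its SE from limma, on days 1 to 3 (circles) and days 4 to 7 (diamonds), filled where the adjusted p is under 0.05. Values are fitted also for arms under the floor (MMP2, MMP14 and TIMP3). The late change of TIMP3 (3.99) lies farthest to the right, MMP9 is the only filled early point, and TIMP4 and PLAUR change side between the windows.

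TIMP3, the matrix-bound inhibitor, had the largest fitted late change of the 9 genes. In untreated cells its intensity was 120, 115 and 117 on days 1 to 3 and 129, 122, 128 and 108 on days 4 to 7, all under the floor. In the BMP4 arm it was 119, 131 and 144 on days 1 to 3 and 250, 497, 568 and 965 on days 4 to 7. It crossed the floor on day 3 there and was higher on each later day. TIMP3 was at least 11.9-fold higher late (fitted log2 change 3.99, SE 0.36, adjusted p = 1.08e-07), and on day 7 alone the arms stood at least 4.71 apart on the log2 scale. The early change did not pass (log2 change 0.48, SE 0.41, adjusted p = 0.416). Like MMP2, TIMP3 passed the filter through BMP4 arrays alone (5 of them).

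TIMP1, a soluble inhibitor, was well above the floor on all 16 arrays. Untreated cells gave 1557, 1590 and 1971 on days 1 to 3 and 1631, 1929, 1770 and 1724 on days 4 to 7. The BMP4 arm gave 2270, 2186 and 2483, then 2529, 3568, 4829 and 6970. The arms did not overlap in either window, and the log2 gap went from 0.58 on day 1 to 0.35 on day 3 and then from 0.67 on day 4 to 2.08 on day 7. TIMP1 was 2.45-fold higher late (log2 change 1.29, SE 0.21, adjusted p = 6.20e-05), and early the change of 0.47 (SE 0.24, adjusted p = 0.159) did not pass. Without the BMP4 array of day 4 the early change passed (0.47, adjusted p = 0.0459). Corrected for day 0, the late value was 1.33 and did not pass (adjusted p = 0.0562), although the day 0 arrays themselves read 1847 with BMP4 and 1891 without.

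TIMP2, which both blocks MMP2 and takes part in its activation by MMP14, moved little. It stood at 624, 570 and 582 on days 1 to 3 and at 601, 566, 619 and 689 on days 4 to 7 in untreated cells. Under BMP4 it was 627, 900 and 863, then 646, 767, 721 and 1131, and the late arrays of the arms overlapped. The late change was 1.35-fold (log2 change 0.43, SE 0.17, adjusted p = 0.0431), just past the threshold. It did not pass with the mean of both probes (0.31, adjusted p = 0.0876), with day 0 subtracted (0.35, adjusted p = 0.554) or with arrays centred on housekeeping genes (0.20, adjusted p = 0.306). It also failed in 8 of 16 fits that each left out 1 array, with the smallest change without the BMP4 array of day 7 (0.24, adjusted p = 0.180), and the dimmer probe gave a late change of 0.19 (SE 0.16). The early change of 0.48 (adjusted p = 0.0772) passed without the BMP4 array of day 1 (0.67, adjusted p = 0.0169), day 4 (adjusted p = 0.0497) or day 7 (adjusted p = 0.0260).

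TIMP4 went the opposite way to TIMP1 and TIMP3. In untreated cells it ran from 412 on day 0 through 296, 428 and 213 on days 1 to 3 to 272, 189, 200 and 216 on days 4 to 7. In the BMP4 arm it ran from 668 through 498, 442 and 287 to 212, 133, 159 and 152, and on day 5 it was under the floor. The arms overlapped in both windows. The late change was -1.01 on the log2 scale (2.01-fold lower, SE 0.36, adjusted p = 0.0258). It did not pass without the BMP4 array of day 5 (-0.73, adjusted p = 0.104) or day 7 (-0.95, adjusted p = 0.0550), without the untreated array of day 4 (-0.81, adjusted p = 0.0916), with no background correction (-0.43, adjusted p = 0.0945), with a larger offset (-0.68, adjusted p = 0.0510) or with the day 0 difference of 0.87 subtracted (-1.87, adjusted p = 0.112). Within the BMP4 arm the fall from the early to the late window was 5.17-fold (log2 change -2.37, SE 0.39, adjusted p = 3.48e-04).

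RefSeq promoter windows (build GRCh38.p14) were found for 6 of the 9 genes, MMP2, MMP9 and TIMP2 being the others, and PLAU has 2 of them. The 250 bases before the start are shown for the 3 genes with a window whose late rise had arrays that did not overlap, and for PLAUR, whose late fall did so. The windows of TIMP4 and PLAU, which also fell late, are not shown. They lie on the plus strand at chr22:32801455-32801704 (TIMP3), chrX:47582186-47582435 (TIMP1) and chr14:22836335-22836584 (MMP14), and on the minus strand at chr19:43670170-43670419 (PLAUR). Capitals mark matches to 6 motifs searched on both strands.
TIMP3: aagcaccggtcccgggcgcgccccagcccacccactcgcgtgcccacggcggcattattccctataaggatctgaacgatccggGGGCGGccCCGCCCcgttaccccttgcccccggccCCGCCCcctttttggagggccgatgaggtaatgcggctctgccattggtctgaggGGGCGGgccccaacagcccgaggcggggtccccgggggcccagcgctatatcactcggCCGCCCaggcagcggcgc
TIMP1: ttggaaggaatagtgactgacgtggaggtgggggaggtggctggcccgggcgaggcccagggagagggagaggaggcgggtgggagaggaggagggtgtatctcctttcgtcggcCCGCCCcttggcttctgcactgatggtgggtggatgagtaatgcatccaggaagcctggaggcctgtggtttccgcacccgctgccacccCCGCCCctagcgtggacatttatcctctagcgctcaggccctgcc
MMP14: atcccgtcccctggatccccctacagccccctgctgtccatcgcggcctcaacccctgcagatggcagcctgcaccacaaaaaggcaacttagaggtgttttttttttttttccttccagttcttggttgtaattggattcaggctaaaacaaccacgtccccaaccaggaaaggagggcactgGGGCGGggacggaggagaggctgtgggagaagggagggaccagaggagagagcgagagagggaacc
PLAUR: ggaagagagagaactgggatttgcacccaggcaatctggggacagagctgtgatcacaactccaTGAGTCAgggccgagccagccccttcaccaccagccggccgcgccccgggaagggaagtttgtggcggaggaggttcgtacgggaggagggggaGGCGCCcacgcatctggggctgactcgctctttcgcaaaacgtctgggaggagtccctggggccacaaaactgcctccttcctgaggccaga
The GC box (GGGCGG) occurs 5 times in the TIMP3 window, 2 times in that of TIMP1 and 1 time in that of MMP14, and 42.6% of all 35116 promoter windows of this length hold it. The PLAUR window holds 1 AP-1 motif (TGANTCA, in 6.57% of all windows) and 1 BMP-type SMAD motif (GGCGCC, in 16.4%). No match to the SMAD box CAGACA (13.6% of all windows), the TATA box TATAAA (10.7%) or the E-box CACCTG (17.5%) lies in these 4 windows. Of the windows not shown, that of TIMP4 holds 1 GC box. The second PLAU window holds 3 GC boxes, 2 BMP-type SMAD motifs and 1 E-box, and the first holds no match. The GC box thus occurs in windows of late risers and, for TIMP4 and PLAU, of late fallers, but not in that of PLAUR. Its part in these changes was not tested. GC content is 72.4% for TIMP3, 64.8% for TIMP1, 56.8% for MMP14 and 63.2% for PLAUR, against a median of 58% over all windows. A match describes these letters and is no evidence of binding.

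Urokinase and its receptor both fell in the late window, on different courses. PLAU stood at 573, 513 and 556 on days 1 to 3 and at 517, 505, 452 and 506 on days 4 to 7 in untreated cells. In the BMP4 arm it was 645, 392 and 304, then 259, 348, 387 and 473. It was lowest on day 4 and higher on each later day, and the late arrays of the arms overlapped. The difference between the arms was -1.40 on the log2 scale on day 4 and -0.12 on day 7. Over the late window PLAU was 1.55-fold lower (log2 change -0.63, SE 0.25, adjusted p = 0.0436). That call was lost in 11 of 16 fits that each left out 1 array, with the smallest change without the BMP4 array of day 4 (-0.40, adjusted p = 0.147), and also on days 5 to 7 alone (-0.38, adjusted p = 0.131), with no background correction (-0.46, adjusted p = 0.0513) and with day 0 subtracted (-0.54, adjusted p = 0.537). The early change of -0.49 (adjusted p = 0.227) passed without the BMP4 array of day 1 (-0.88, adjusted p = 0.0147).

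PLAUR was dim throughout but above the floor on all arrays. Untreated cells gave 179, 182 and 169 on days 1 to 3 and 201, 210, 181 and 205 on days 4 to 7. The BMP4 arm gave 196, 212 and 186, then 150, 153, 152 and 161. Early the BMP4 arrays all lay above the untreated ones and late all lay below them. The receptor gene was 1.85-fold lower late (log2 change -0.89, SE 0.15, adjusted p = 8.25e-05), while the early change of 0.35 (SE 0.17) did not pass (adjusted p = 0.139). Its other probes also gave lower late values, -0.51 (SE 0.18) and -0.61 (SE 0.21), the latter from a probe above the floor on 4 arrays, and early values of -0.32 and -0.05. The difference between the windows did not pass with the mean of all 3 probes (-0.66, adjusted p = 0.0755). Corrected for day 0, the late change was -0.75 and did not pass (adjusted p = 0.122).

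**Figure D3:**
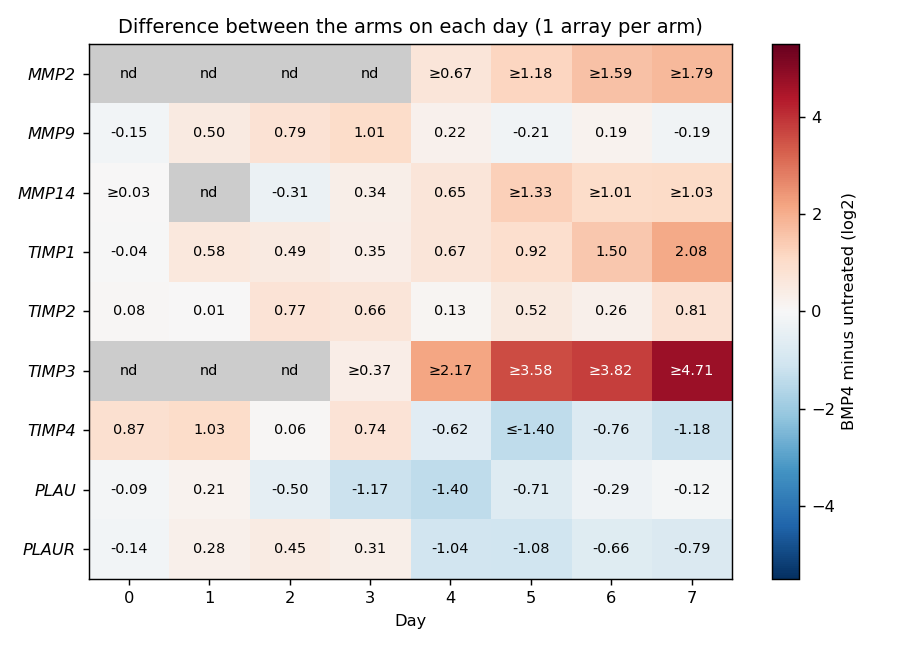
Difference of log2 levels, BMP4 minus untreated, on each day (columns) for each gene (rows), from 1 array per arm and day, red for higher and blue for lower with BMP4. A value with ≥ or ≤ is a bound, because 1 of the arrays was under the floor and was set to it, and grey (nd) marks days with both arrays under it. TIMP3 reads at least 2.17 on day 4 and at least 4.71 on day 7, MMP2 at least 0.67 and at least 1.79, and PLAU returns from -1.40 to -0.12 over the same days.

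Time within each arm separated the genes further. In the BMP4 arm, where 39.8% of all genes had a slope past the threshold over days 0 to 7, 5 members had a rising one (18.6% of all genes) and 3 a falling one (21.1%). TIMP3 gained 0.86 on the log2 scale per day (SE 0.06, adjusted p = 1.41e-09), MMP2 0.37 (SE 0.03), TIMP1 0.26 (SE 0.03), MMP14 0.21 (SE 0.05) and TIMP2 0.09 (SE 0.03, adjusted p = 0.0350). TIMP4 lost 0.59 per day (slope -0.59, SE 0.07, adjusted p = 1.27e-06), while MMP9 had a slope of -0.23 and PLAUR one of -0.16. The slope of PLAUR did not pass with the mean of its probes (-0.09, adjusted p = 0.0504), and its second probe above the floor on all 16 arrays gave -0.02 (SE 0.04), with a slope difference between the arms of 0.05 (SE 0.06). The slopes of MMP2, MMP14 and TIMP3 are fitted through days under the floor. MMP2 and TIMP3 passed the filter through BMP4 arrays alone, so their rising slopes and slope differences are partly built in. The slope of PLAU, -0.07 (adjusted p = 0.327), did not pass over all days and did without the BMP4 array of day 7 (-0.16, adjusted p = 0.0400). That of TIMP2 was lost without the BMP4 array of day 0 (0.07, adjusted p = 0.189), day 1 (0.08, adjusted p = 0.0836) or day 7 (0.04, adjusted p = 0.411). In untreated cells MMP9 was the 1 gene with a slope past the threshold, where 3.4% of all genes passed, 1.9% rising and 1.49% falling. That call of MMP9 was lost in 7 of the 16 fits without 1 array. TIMP4 had an untreated slope of -0.24 (adjusted p = 0.0609), which passed without the BMP4 array of day 5 (adjusted p = 0.0159) or day 7 (adjusted p = 0.0454). The slopes differed between the arms in 6 genes (24.5% of all genes), 4 towards higher values with BMP4 (MMP2, MMP14, TIMP1 and TIMP3, 11.4% of all genes) and 2 towards lower ones (TIMP4 and PLAUR, 13.1%). Without the untreated array of day 7 the slope difference did not pass for MMP14 (0.20, adjusted p = 0.0661), TIMP4 (-0.29, adjusted p = 0.0624) or PLAUR (-0.16, adjusted p = 0.109), and that of PLAUR was lost in 8 of the 16 fits without 1 array. For MMP9 the slopes differed by -0.07 (SE 0.06, adjusted p = 0.459), which did not pass.

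From the early to the late window of the BMP4 arm 4 genes rose (12.8% of all genes) and 3 fell (13.7%), with 26.5% of all genes past the threshold. TIMP3 rose by a fitted 3.67 on the log2 scale (SE 0.39), MMP2 by 1.59 on the log2 scale (SE 0.21), MMP14 by 1.00 (SE 0.23) and TIMP1 by 0.88 (SE 0.23, adjusted p = 0.00877). The rises of MMP2 and TIMP3, which passed the filter through BMP4 arrays alone, are partly built in. MMP9 fell 2.40-fold (log2 change -1.26, SE 0.16), TIMP4 5.17-fold and PLAUR 1.83-fold. TIMP2 (log2 change 0.02, SE 0.18, adjusted p = 0.951) and PLAU (-0.32, SE 0.27, adjusted p = 0.419) did not pass. In untreated cells no member passed by limma between the same windows, where 0.0746% of all genes rose and 0% fell, and 1 member was higher and 1 lower at an unadjusted p under 0.05 (PLAUR 0.37 and MMP9 -0.50).

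Over the 8 arrays of the BMP4 arm, which share their day order, the log2 levels of MMP2 and TIMP3 correlated at 0.995 and those of MMP9 and TIMP4 at 0.916, while TIMP3 and TIMP4 correlated at -0.954. In the 8 untreated arrays MMP9 and TIMP4 correlated at 0.840. There MMP2 and TIMP3, both under the floor, gave -0.22, and TIMP3 and TIMP4 gave -0.31. Over all 16 arrays the genes most like MMP2 by Pearson correlation were HGF (0.988), TIMP3 (0.986) and NPY (0.986). Those most like TIMP3 were CLEC1B (0.994), SYNPO2L (0.991) and PRRX1 (0.990), and those most like TIMP1 were PRCP (0.985), LOXL4 (0.976) and PLCE1 (0.975). For MMP14 they were PRDM6 (0.937), PSTPIP2 (0.927) and JOSD2 (0.916), for MMP9 SNRPF (0.923), TMEM63A (0.921) and CBR3 (0.917), and for TIMP4 CFAP95 (0.962), VSIG10 (0.951) and FHDC1 (0.940). For PLAU they were JAG2 (0.922), EVI5L (0.919) and CFAP144 (0.914), for PLAUR TEX15 (0.884), SNUPN (0.882) and HTR3A (0.867), and for TIMP2 OLR1 (0.874), ASAP2 (0.831) and BICC1 (0.827). These values describe a shared course over arm and day and carry no test.

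The wider set of matrix proteases and inhibitors held genes called in both directions, as did all tested genes. Of those 27.3% rose and 26.6% fell late, and 16.1% rose and 13.3% fell early. Of 20 other metalloproteinase genes 8 passed the filter, of which 3 rose and 3 fell late, with a median log2 change of 0.17 against 0.00 over all tested genes. The membrane-type enzyme genes MMP16 (4.63-fold lower, log2 change -2.21, adjusted p = 6.74e-08) and MMP25 (3.39-fold lower) fell, and MMP23B, whose probe may also read its near-identical copy, rose 2.77-fold. Early 4 of these 8 fell and none rose, among them MMP16 (-1.13), the stromelysin gene MMP11 (-0.91) and MMP25 (-0.79). Of 10 tested genes for other inhibitors and activators of metalloproteinases 3 rose and 2 fell late, with a median of 0.10. FURIN, the convertase that activates membrane-type metalloproteinases, rose 3.00-fold early and 7.64-fold late (log2 change 2.93, SE 0.21, adjusted p = 1.25e-08), while the thrombospondin gene THBS2 (-1.86) and the testican gene SPOCK1 (-1.11) fell late.

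**Figure D4:**
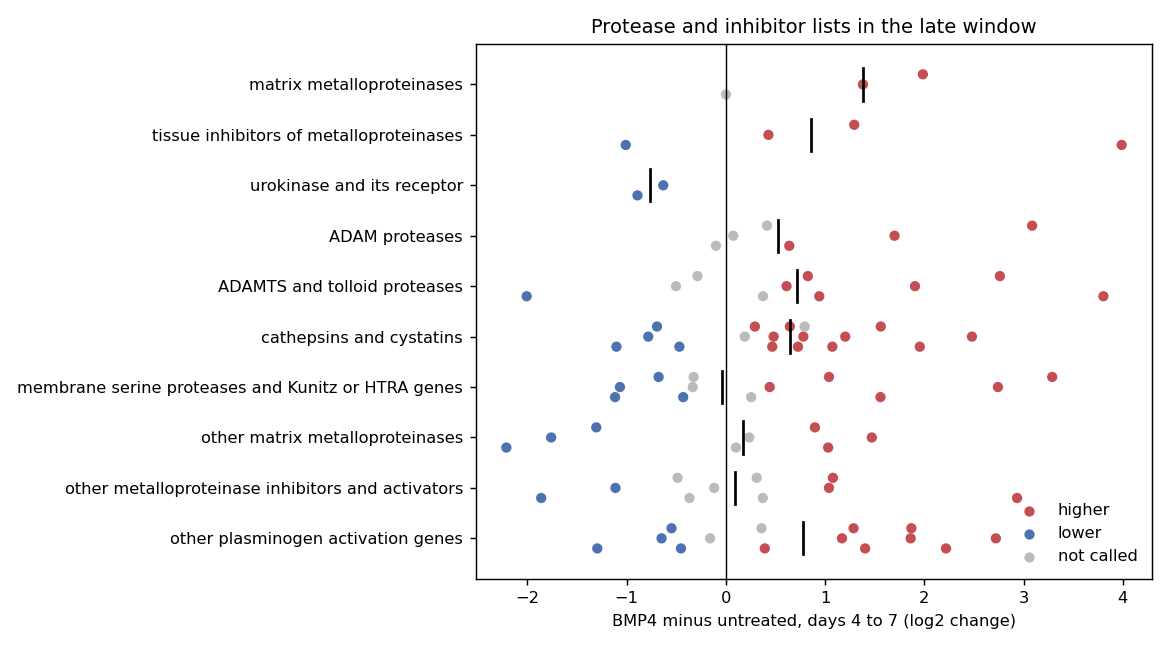
Late log2 change, BMP4 minus untreated, of each tested gene (points) in the lists of proteases and inhibitors, red where it rose, blue where it fell and grey where it did not pass, with a black bar at each list's median. TIMP3 lies at 3.99 in the row of the tissue inhibitors, and the plasminogen activation genes spread from VLDLR at -1.30 to SERPINE2 at 2.72.

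In the plasminogen system outside PLAU and PLAUR, 8 of 14 tested genes rose and 4 fell late (median 0.78). The counts of this and the next lists stand against 27.3% of all tested genes higher and 26.6% lower late. Early the shares of all tested genes were 16.1% and 13.3%. SERPINE2, which encodes protease nexin-1, an inhibitor of urokinase and thrombin, rose 3.72-fold early and 6.59-fold late (log2 change 2.72, SE 0.20, adjusted p = 1.06e-08). The tissue plasminogen activator gene PLAT rose 4.65-fold late, and ANXA2, encoding a plasminogen-binding annexin of the cell surface, rose 3.65-fold. Early 3 of the 14 rose, with SERPINB8 at least 1.72-fold higher, and VLDLR fell (-1.02), which encodes a receptor that takes up complexes of serpins with their proteases. Of 6 tested ADAM genes 3 rose in each window and none fell, with a late median of 0.53, and they were ADAM19 (8.49-fold late), ADAM9 (3.25-fold) and the sheddase gene ADAM17 (1.56-fold). Among 10 tested ADAMTS and tolloid genes 6 rose and 1 fell late (median 0.72), ADAMTS9 by at least 10.8-fold and ADAMTS1 by 6.78-fold, while ADAMTS8 was 4.02-fold lower. Early 2 of these rose and 2 fell. Of 17 cathepsin and cystatin genes 11 rose and 4 fell late (median 0.64), led by the lysosomal cysteine proteases CTSL (5.58-fold), CTSK (3.87-fold) and CTSB (2.95-fold), and early 4 rose and 2 fell. In the list of membrane serine proteases with Kunitz inhibitors and HTRA genes 5 of 12 rose and 4 fell late (median -0.04). HGF, a growth factor built like a serine protease, was at least 6.14-fold higher, PRSS23 rose by 2.74 on the log2 scale and HTRA1 2.94-fold, and early PRSS23 (2.38-fold), the prostasin gene PRSS8 (1.94-fold) and the inhibitor gene SPINT2 (1.39-fold) rose and none fell.

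Markers of several cell types moved in the same windows, and in these bulk arrays more cells of a type and more RNA per cell cannot be told apart. Their counts stand against 27.3% of all tested genes higher and 26.6% lower late, and 16.1% higher early. Of 10 markers of fibroblasts or mesenchyme 9 were tested, 7 rose late and THY1 fell (-1.46), and their summed background-corrected intensity was 6020 to 25486 in the late BMP4 arrays against 5250 to 5883 in untreated ones, with LUM 5.21 and PDGFRB 2.67 higher on the log2 scale and DCN not above the floor in any window. Of 8 endothelial markers 5 were tested and 4 rose late, with sums of 689 to 3359 against 518 to 668, and TIE1 and CLDN5 were not above the floor in the late BMP4 arrays. Of 10 trophoblast markers 9 have a probe, 8 were tested and 6 rose late, with sums of 3147 to 4366 against 784 to 1173 and ELF5 not above the floor, and early 4 rose. In the extravillous trophoblast list, which holds MMP2 itself, 4 of 7 tested genes rose late, with sums of 922 to 1543 against 213 to 309, and HLA-G had a log2 change of -0.07. Among the risers, POSTN, PECAM1, ESAM, GATA2, GATA3, DIO2 and MMP2 were above the floor on no untreated array. Such genes passed the filter through BMP4 arrays alone, so their rise is partly built in. The pluripotent stem cell markers fell late in 7 of 8 cases, with sums of 11786 to 18737 against 29563 to 32680. The part of these shifts in the changes of the proteases and inhibitors was not tested.

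MMP9 is also known as a product of neutrophils and macrophages, so their markers were set beside it. In the early window, where MMP9 rose, none of 5 tested leukocyte and 4 tested neutrophil markers passed by limma in either direction, against 29.4% of all tested genes. Summed leukocyte markers read 292 to 327 with BMP4 and 345 to 380 without, and neutrophil markers 177 to 232 with BMP4 and 220 to 228 without. PTPRC, CD163, LYZ and TYROBP among the leukocyte markers and MPO, ELANE, CSF3R and S100A8 among the neutrophil markers were not above the floor on any early BMP4 array. CD14, CSF1R and SPI1 were above it on at least 1 early BMP4 array and on no early untreated one. CD163, TYROBP and MPO went the other way, above it on at least 1 early untreated array and on no early BMP4 one. In the late window, where MMP9 did not pass, CSF1R was at least 3.35-fold and CSF3R at least 2.64-fold higher with BMP4, with 2 of 5 leukocyte markers higher and 2 lower and 1 of 4 neutrophil markers higher and 1 lower. Late, 27.3% of all tested genes were higher and 26.6% lower. CSF1R and CSF3R were above the floor on no untreated array. Both passed the filter through BMP4 arrays alone, so their rise is partly built in. The part of these markers in the MMP9 signal was not tested.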

How the data were processed

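Per the labels' protocols, RNA came from a Trizol extraction with a DNase step and was labelled as biotinylated cRNA. The values are the authors' deposited intensities of the series' value table, whose scanner and normalization the labels and headers do not name. Read from the values, they are quantile normalized: the 16 arrays share their quantiles to within 0.000129 in log2 units, and the median is 128.3. A deposited table of non-normalized signals has 32 columns that match no label and was not used here, so no detection p-values were available. Background was estimated from values below the main peak at 117.3, mirrored about it (SD 7.64, 99th percentile 134.3, used as the floor). Intensities were corrected by normexp (limma 3.58.1, R 4.3.3), then raised by an offset of 16 and put on the log2 scale, which pulls in changes of dim genes. Of 47323 probes 30113 have 1 gene symbol, 8 several and 17202 none here, and 30074 matched the current reference by gene identifier with 0 symbols changed. Each of 20046 genes took its brightest probe, kept if above the floor on at least 3 arrays, which left 13398 genes and all 9 members.

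Arms and days came from the labels. One limma fit took the arms by window and another took a linear slope on day within each arm, both with an intensity trend, were run over all genes with two-sided tests. Where 1 arm's window mean, or each of its arrays, was at or under the floor, the change is a lower bound ("at least"), for which dim values were raised to the floor before averaging, while slopes and differences between windows are fitted values without such a bound. Both fits were checked on simulated data in which the changed genes were known. Alternatives were another offset, no background correction, other filters, the mean of probes, housekeeping centring, no trend, subtraction of day 0, day as a block, narrower windows and each array left out. The members and lists were chosen with earlier results of these data known. Named beside the members are, per list and window, up to 3 genes with the largest change past the threshold, and per member the 3 genes with the highest correlation. Protein sequences were not analysed here. Same-day arrays of the arms deviated together only weakly (correlations of -0.04 to 0.28 over days 1 to 7), so days were not treated as pairs.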

Additional observations from a re-analysis of the deposited data

Results flagged for a closer look

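The effect of BMP4 differed between the early and the late window, by the interaction term of the limma fit, in 5 of the 9 genes: MMP2 (1.57 on the log2 scale), MMP14 (1.30), TIMP3 (3.51), MMP9 (-0.76) and PLAUR (-1.24). For MMP2 and TIMP3 both arms, and for MMP14 the untreated arm, had early means under the floor, so these fitted values are not exact. The call of MMP9 was lost in 11 and that of MMP14 in 4 of 16 fits that each left out 1 array. The PLAUR value comes from the brightest of 3 probes, and the next brightest gave -0.19 (SE 0.27). None of 36 groups of arrays (each gene in each arm, over all days and over days 4 to 7) had a highest or lowest array set apart from the rest by Dixon's test, which flags about 1 in 20 groups by chance.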

How the results depend on the processing

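Over the 9 genes, 224 of 232 alternative values of the early effect and 193 of 232 of the late effect kept their side of the threshold. These counts include values that changed sign with neither fit past the threshold. No value changed sign where either fit passed. With the day 0 difference subtracted 0 members were higher early, and 2 were higher and 0 lower late. With the floor passed on at least 8 arrays MMP2 and TIMP3 were not tested, which left 3 members higher late, 1 for the difference between windows, 2 for the change within the BMP4 arm, 3 for its slope and 2 for the slope difference. With no background correction 1 member was lower late and 2 had a falling untreated slope, as with an offset of 50 (2). With no filter, or with the mean of probes, 1 member was lower for the difference between windows and 1 for the slope difference, and with no filter 0 untreated slopes fell. A replicate block on day gave 3 members higher early (MMP9, TIMP2 with adjusted p = 0.0494 and TIMP4 with adjusted p = 0.0494), let TIMP4 pass for the difference between windows (adjusted p = 0.00634) and changed no other call. Leaving out each array in turn, 1 to 3 members were higher and 0 to 1 lower early, 1 to 3 lower late, 1 to 3 lower for the difference between windows, 0 to 2 for the untreated slope and 0 to 2 for the slope difference. Late, the changes of MMP2 (1.82 to 2.20), TIMP3 (3.61 to 4.45), TIMP1 (1.04 to 1.54), MMP14 (1.28 to 1.53) and PLAUR (-0.99 to -0.84) passed without any 1 array, while PLAU did not pass in 11, TIMP2 in 8 and TIMP4 in 3 of these fits. Over all genes, day 0 subtraction left 141 higher and 174 lower early and 1195 and 1415 late, and housekeeping centring gave 2409 higher late and 122 falling untreated slopes. Leaving out each array gave 376 to 1244 higher and 288 to 1157 lower for the difference between windows, 1 to 20 higher and 0 to 8 lower for the untreated drift, 1141 to 2340 lower for the change within the BMP4 arm, and 75 to 340 rising and 39 to 275 falling untreated slopes. The untreated drift had 4 genes higher with an offset of 50, 1 with no background correction and 5 with the filter at 8 arrays. Housekeeping centring turned the sign of MMP14 early (-0.12) and gave MMP9 a late value of -0.23, neither past the threshold. Dim signals limit MMP2 and TIMP3, whose untreated levels are known only as at or below the floor, and MMP14, which was above it on 3 of 8 untreated arrays. The cause of these shifts was not tested.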
